A study of Mus musculus with 12 samples.

Results

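WT-specific gene-end peaks are ATAC-seq peaks called in wild-type (WT) C2C12 myoblasts that overlap no peak of the Runx1 knockout (KO) list and whose centre lies within 1 kb of either end of an annotated mouse gene. Of 34118 WT peaks, 10356 lay that close to a gene end, and 1503 of these were WT-specific with the unlabelled last column of the deposited list empty. They made up 14.5% of the WT peaks near gene ends and were drawn from 8325 WT-specific peaks with that column empty. In what follows, WT-specific means these rows, and the 204 gene-end peaks with that column filled are left out of the counts and kept in the denominators. The 1503 peaks were set beside the 8649 WT peaks near gene ends that the authors placed in the shared list.

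C2C12 is an established line of mouse myoblasts, which proliferate while serum is plentiful and form multinucleate myotubes after its removal. The groups used here were WT and Runx1KO C2C12 cells at day 0, in growth medium containing 20% FBS (fetal bovine serum), each with 3 samples, and the day 2 differentiation samples were not analysed here. Peak names refer to replicate 1 of each genotype, which leaves interval, fold and −log10 q from 1 library per genotype and no replicate error. The labels do not say whether the knockout is 1 clone, and sequencing depth is unknown.

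ATAC-seq marks open DNA by the cuts of the Tn5 transposase in nuclei. Gene starts are open in most cell types where the gene can be transcribed, often over CpG islands bound by general factors of the SP, NF-Y and ETS families. Runx1 binds DNA as a partner of CBFβ, acts with ETS and AP-1 factors at many enhancers, and in muscle is known for keeping myoblasts dividing and for its rise in denervated or regenerating fibres.

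The promoter windows that the strongest of these peaks overlap were unlike one another. The following 6 windows run from 250 bases before to 50 after an annotated gene start (RefSeq, GRCm38.p6) and were overlapped by the WT-specific gene-end peaks with the highest −log10 q and by no shared WT peak. The peaks covered between 135 (Mndal) and 229 (Adamts17) of the 300 bases. RefSeq can annotate more than 1 start for a gene, and the start of a window need not be the outermost one, from which peak distances are given below. Letters are 5′ to 3′ in the direction of the gene, and capitals mark matches to 9 short motifs searched on both strands. The RUNX family was searched as TGTGGT and also in its variant form TGCGGT. ETS factors were searched by their core CCGGAA. The AP-1 dimers of Fos and Jun proteins were searched as TGACTCA and, with the middle base exchanged, as TGAGTCA. TEAD factors were searched as GGAATG, which can overlap the ETS core. The E-box of myogenic bHLH proteins was searched as CAGCTG. General promoter elements were the GC box of SP and KLF proteins, GGGCGG, and the NF-Y element CCAAT. The CREB element was searched as TGACGTCA and the TATA box in the form TATAAA. A match describes letters, not a bound site.
Mndal, chr1:173880138-173880437, minus strand: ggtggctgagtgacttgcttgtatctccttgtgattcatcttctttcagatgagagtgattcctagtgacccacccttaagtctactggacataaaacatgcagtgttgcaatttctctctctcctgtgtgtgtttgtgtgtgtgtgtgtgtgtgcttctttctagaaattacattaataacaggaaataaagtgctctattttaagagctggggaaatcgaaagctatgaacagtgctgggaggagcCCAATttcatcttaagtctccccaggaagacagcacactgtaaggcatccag
Adamts17, chr7:66839485-66839784, plus strand: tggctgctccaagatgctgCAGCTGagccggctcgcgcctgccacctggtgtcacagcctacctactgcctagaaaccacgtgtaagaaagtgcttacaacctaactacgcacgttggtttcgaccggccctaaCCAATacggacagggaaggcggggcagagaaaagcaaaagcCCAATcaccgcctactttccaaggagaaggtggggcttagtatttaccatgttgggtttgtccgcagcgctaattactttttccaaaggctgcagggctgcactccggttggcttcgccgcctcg
Plekho2, chr9:65580038-65580337, minus strand: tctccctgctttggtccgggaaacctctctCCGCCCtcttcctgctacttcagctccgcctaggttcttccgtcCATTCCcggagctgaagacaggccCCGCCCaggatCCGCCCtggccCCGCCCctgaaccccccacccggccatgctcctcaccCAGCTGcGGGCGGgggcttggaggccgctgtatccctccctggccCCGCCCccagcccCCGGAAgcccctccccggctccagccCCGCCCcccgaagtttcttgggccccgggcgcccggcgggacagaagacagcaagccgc
Epha4, chr1:77515039-77515338, minus strand: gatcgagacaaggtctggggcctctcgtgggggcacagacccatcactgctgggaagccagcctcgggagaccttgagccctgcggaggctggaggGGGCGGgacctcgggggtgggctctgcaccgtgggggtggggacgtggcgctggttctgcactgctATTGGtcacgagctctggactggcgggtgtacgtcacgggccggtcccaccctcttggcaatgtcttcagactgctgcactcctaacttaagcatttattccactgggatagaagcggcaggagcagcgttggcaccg
Ptms, chr6:124917897-124918196, minus strand: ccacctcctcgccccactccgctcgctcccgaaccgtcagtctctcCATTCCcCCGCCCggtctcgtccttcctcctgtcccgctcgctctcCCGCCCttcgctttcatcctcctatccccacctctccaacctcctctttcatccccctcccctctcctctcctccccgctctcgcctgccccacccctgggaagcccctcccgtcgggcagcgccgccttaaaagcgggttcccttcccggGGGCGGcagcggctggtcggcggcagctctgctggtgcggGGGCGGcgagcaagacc
Mrpl9, chr3:94443086-94443385, plus strand: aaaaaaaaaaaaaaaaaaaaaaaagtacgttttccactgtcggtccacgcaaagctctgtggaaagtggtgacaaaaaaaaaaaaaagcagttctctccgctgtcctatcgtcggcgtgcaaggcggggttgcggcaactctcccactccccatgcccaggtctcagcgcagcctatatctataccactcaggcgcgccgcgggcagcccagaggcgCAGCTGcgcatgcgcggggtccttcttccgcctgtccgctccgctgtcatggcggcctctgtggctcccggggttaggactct

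Mndal, an interferon-inducible gene, had a window with 1 CpG dinucleotide, a CpG observed/expected ratio of 0.0726 and a GC content of 43.0%. Ptms, which encodes the nuclear protein parathymosin, had 27 CpG dinucleotides, a ratio of 0.861 and 4 GC boxes, 2 of them inside the peak. Plekho2, a gene for a pleckstrin homology domain protein, had 7 GC boxes and an E-box at −93 (positions are counted from −1 just before the start of the window's transcript), with 5 GC boxes and the E-box inside the peak and an ETS match at −35 outside it. The only match of Mndal, CCAAT at −2, also lay outside its peak. The windows therefore ranged from CpG-poor to CpG-rich, and none of the 6 held the RUNX letters.

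The next 2 windows, chosen after their values were seen, belong to the strongest WT-specific gene-end peaks whose window does hold RUNX letters, which lay inside both peaks.
Aadat, chr8:60505874-60506173, plus strand: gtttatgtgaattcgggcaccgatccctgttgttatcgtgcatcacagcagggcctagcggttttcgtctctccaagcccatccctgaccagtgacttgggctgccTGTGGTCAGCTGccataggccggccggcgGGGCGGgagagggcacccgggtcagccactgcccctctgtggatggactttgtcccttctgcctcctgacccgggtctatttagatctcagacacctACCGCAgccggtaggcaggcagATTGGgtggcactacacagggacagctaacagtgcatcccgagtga
Zim1, chr7:6696383-6696682, minus strand: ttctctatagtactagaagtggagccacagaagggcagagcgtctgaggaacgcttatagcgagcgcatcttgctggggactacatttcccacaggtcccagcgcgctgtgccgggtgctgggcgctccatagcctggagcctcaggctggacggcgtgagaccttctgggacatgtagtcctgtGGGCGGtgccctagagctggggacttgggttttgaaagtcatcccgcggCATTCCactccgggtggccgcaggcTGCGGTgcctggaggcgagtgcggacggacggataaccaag
Aadat, which encodes a mitochondrial aminotransferase of lysine and kynurenine metabolism, had RUNX matches at −144 and −18, the first directly followed by an E-box. In Zim1, an imprinted zinc finger gene, the match lay at 10 inside the transcribed part.

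A further pair of windows of list genes, also chosen after their values were seen, are those of Mef2b, a myogenic MADS-box factor, and Elk4, an ETS factor that works with SRF.
Mef2b, chr8:70152511-70152810, plus strand: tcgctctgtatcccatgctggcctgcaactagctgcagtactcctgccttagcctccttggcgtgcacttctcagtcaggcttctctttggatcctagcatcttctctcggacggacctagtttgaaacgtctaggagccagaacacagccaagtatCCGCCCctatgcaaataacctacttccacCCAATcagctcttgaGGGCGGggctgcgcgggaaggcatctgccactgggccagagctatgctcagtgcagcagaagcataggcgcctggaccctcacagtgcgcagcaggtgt
Elk4, chr1:132007370-132007669, plus strand: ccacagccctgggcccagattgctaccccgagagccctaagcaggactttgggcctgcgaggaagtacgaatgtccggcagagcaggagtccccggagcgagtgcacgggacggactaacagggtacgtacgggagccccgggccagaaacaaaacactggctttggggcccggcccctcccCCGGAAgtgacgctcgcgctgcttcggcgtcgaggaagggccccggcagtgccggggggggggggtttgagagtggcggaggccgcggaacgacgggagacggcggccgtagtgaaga
Elk4 held the ETS letters at −68 of its own promoter, and Mef2b held 2 GC boxes and a CCAAT box without ETS or RUNX letters, and these matches lay inside the peaks.

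As a check of the label, the targeted gene and its family came first. No WT-specific gene-end peak lay at Runx1: its 1 WT peak near a gene end, at the gene start (chr16:92825830-92826223, mm10, fold 6.46, −log10 q 15.0), was in the shared list. The open start of Runx1 in both lists does not test the knockout, since a deletion elsewhere in the gene would leave it in place. Runx2 and Runx3, the other DNA-binding members, Cbfb, their obligate partner, and the corepressor genes Cbfa2t2, Tle1, Tle3 and Tle4 also had 1 shared peak each at their starts, with −log10 q between 10.9 (Runx2) and 80.5 (Tle4). This gave 0 of 8 peaks, which allows a share of up to 37.5% when the limit is set at 3 counts, as for each count of 0 below. Of the myoblast identity genes, Myod1, Des and Chrna1 had a shared peak near a gene end, and Myf5, Cdh15 and Itga7 had no WT peak there. Of 43 blood and immune markers, 6 had a WT peak near a gene end: the transcription factor genes Spi1 (−log10 q 12.1), Cebpa (32.0), Cebpb (7.18) and Ebf1 (44.1), and Cd34 (9.90), all shared, and Il3ra, described below. Of the others, Ptprc, Cd68, Csf1r, Itgam, Cd3e, Gata1 and Vav1 had no such peak, and the part of other cell types in the results was not tested.

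WT-specific gene-end peaks were weak and narrow. The deposited −log10 q and fold are the authors' peak-caller values. The −log10 q had a median of 7.88 (95% interval of the median 7.54 to 8.13), quartiles of 5.27 and 11.6 and a range of 1.32 to 36.1. Among shared peaks near gene ends the median was 24.4 (23.9 to 24.8). Fold over local background had a median of 6.17 against 11.3, and width had a median of 266 bp (257 to 274) against 502 bp (496 to 507). These intervals, and the 95% Wilson intervals given with shares below, treat peaks (or promoter windows, for shares of windows) as units. They cover counting error only, so they describe the lists and not the genotypes.

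A −log10 q of at least 10 was reached by 482 WT-specific gene-end peaks (32.1%) and by 7652 shared ones (88.5%). Only 38 of the 1503 (2.53%) lay above the median of the shared peaks. The strongest of all lay 719 bp from the 3′ end of the long noncoding RNA gene 4833418N02Rik (−log10 q 36.1), and is named here because of that value. Against WT-specific peaks elsewhere in the genome, of which there were 6822 with the last column empty, strength was much closer (median −log10 q 8.41) and width slightly larger (266 against 241 bp).

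Peaks without a KO partner were scarcer near gene ends than elsewhere at equal strength. Over all WT peaks, 27.3% had no KO partner, and away from gene ends 28.7% had none and an empty last column. When all WT peaks were ranked by −log10 q into 10 classes of equal size, the share in class 1, the weakest, was 61.8% (58.2 to 65.2) near gene ends and 66.3% (64.5 to 68.1) elsewhere. In class 5, with −log10 q from 13.1 to 16.1, it was 13.9% (11.8 to 16.3) near gene ends and 26.9% (25.2 to 28.7) elsewhere. In class 10, the strongest, it was 0 of 1608 near gene ends, which allows up to 0.187% (3 counts), and 5 of 1804 (0.277%) elsewhere. The intervals of both curves did not overlap in classes 2 to 8. The KO list was shorter than the WT list, with 27187 peaks, and the part of library depth in these shares was not tested.

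**Figure D1:**
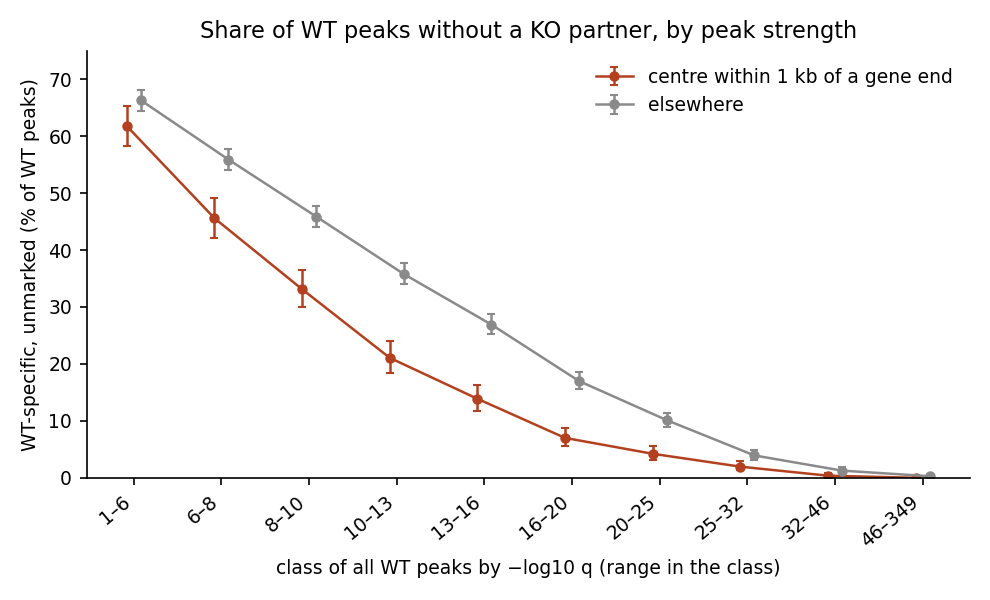
Share of WT peaks that are WT-specific with an empty last column (vertical axis, %) in 10 equal classes of all WT peaks by −log10 q (horizontal axis), near gene ends and elsewhere. Points are shares and bars 95% Wilson intervals. Both fall with strength, from 61.8% to 0% near gene ends, and the gene-end curve lies below the other in each class.

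Width followed the same order. WT-specific gene-end peaks were 54.1% of the WT peaks near gene ends up to 200 bp wide, 16.5% of those over 300 and up to 400 bp and 2.22% of those over 600 bp. Any overlap with a KO peak removes a WT peak from this set, so wide peaks are less likely to qualify by the rule itself. How much of the order by width comes from the rule was not tested.

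The strongest WT-specific gene-end peaks at protein-coding genes were at genes of unrelated functions. At Mndal the peak (chr1:173880303-173880457) had a −log10 q of 33.6 and a fold of 16.8, and its centre lay 2.5 bp from the outermost gene start and at −193.5 bp (upstream) from the start of the window printed above. At Adamts17, a secreted metalloprotease gene, the peak (chr7:66839478-66839713) had a −log10 q of 32.9 and lay 103 bp upstream of the start. At Mgp, which encodes matrix Gla protein, an inhibitor of calcification, the peak (chr6:136875654-136876164) reached 32.7 and lay 85.5 bp from a gene end whose strand was not known. None of these 3 genes had a shared peak near an end.

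Epha4, an ephrin receptor gene that guides cell contacts, had a peak (chr1:77515041-77515214) with a −log10 q of 30.4, centred 20 bp upstream of the start and 973 bp from the edge of a shared peak. At Ptms the peak (chr6:124918007-124918291) had a −log10 q of 30.2 with a fold of 7.50, and at Plekho2 the peak (chr9:65580148-65580380) had 32.5 with a fold of 13.7. Eef1b2, a subunit gene of the translation elongation factor that exchanges guanine nucleotides, was the exception in position: its peak (chr1:63181104-63181319, −log10 q 31.4) lay 725 bp beyond the 3′ end, while a shared peak (−log10 q 19.4) marked the gene as well. Olfr102, an odorant receptor gene, reached 29.7, Mrpl9, of the large mitochondrial ribosomal subunit, 29.3 (centred 44 bp downstream of the printed window's start), and Fkbpl, an FK506-binding protein-like gene, 29.1. The last of the 12 were Gm46390 (28.9) and Aadat (28.7). Of these 12, 10 were nearest to a gene start, 1 to a 3′ end and 1 to an end of unknown strand.

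Close to the 1 kb limit the values were ordinary. Just inside it were the peaks of Lsm12 at 999 bp (−log10 q 8.58), Gm31005 at 998 bp (10.2), and Atp8b2 (9.55) and Gm39450 (8.46), both at 996.5 bp. Just outside were those of Ifitm3 at 1000.5 bp (7.60), 2310033P09Rik at 1002 bp (8.96), Stimate at 1010 bp (21.5) and Gm40258 at 1012 bp (6.23).

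WT-specific gene-end peaks sat at gene starts less often than shared peaks and at 3′ ends more often. The gene table gives no strand, so strand was taken from the RefSeq promoter windows, which held the nearest gene for 1079 of the 1503 peaks and 6721 of the 8649 shared ones. Of those, 875 (81.1%, 78.7 to 83.3) were nearest to the gene start against 6253 (93.0%, 92.4 to 93.6) of the shared peaks, and 204 (18.9%) were nearest to the 3′ end against 468 (6.96%). Read the other way, 12.1% (11.3 to 12.8) of WT peaks at gene starts and 29.2% (26.0 to 32.7) of WT peaks at 3′ ends were WT-specific with the last column empty. The difference was also present within classes of strength: in the weakest of 4 equal classes of WT peaks near gene ends the shares were 40.6% at starts and 55.0% at 3′ ends, and in the next class 10.0% (8.73 to 11.5) and 24.1% (18.7 to 30.5). It depended on distance: within 100 bp of the gene end the shares were 10.4% (9.44 to 11.5) at starts and 31.7% (19.6 to 47.0) at 3′ ends. Over 750 and up to 1000 bp away they were 30.7% (26.05 to 35.7) and 29.4% (23.3 to 36.5), within counting error of each other.

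At gene starts both kinds of peak piled up on the start itself, but WT-specific ones spread further. Their centre lay within 100 bp of the start in 40.8% (37.6 to 44.1) against 48.4% (47.2 to 49.7) of shared peaks, and more than 500 bp away in 21.6% (19.0 to 24.5) against 9.18% (8.49 to 9.92). The side was similar, with 42.1% upstream against 43.6%. A WT-specific gene-end peak covered the gene end itself in 44.9% of cases and a shared one in 75.6%. Wider peaks cover an end more readily, and the part of the greater width of shared peaks in this difference was not tested. The start of another gene on the other strand lay within 1 kb of the nearest start, in any orientation, for 101 of 875 (11.5%) against 20.9% of shared peaks. At 3′ ends neither kind was centred on the end: 53.9% (47.1 to 60.6) of the WT-specific and 49.8% (45.3 to 54.3) of the shared peaks lay beyond the gene.

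**Figure D2:**
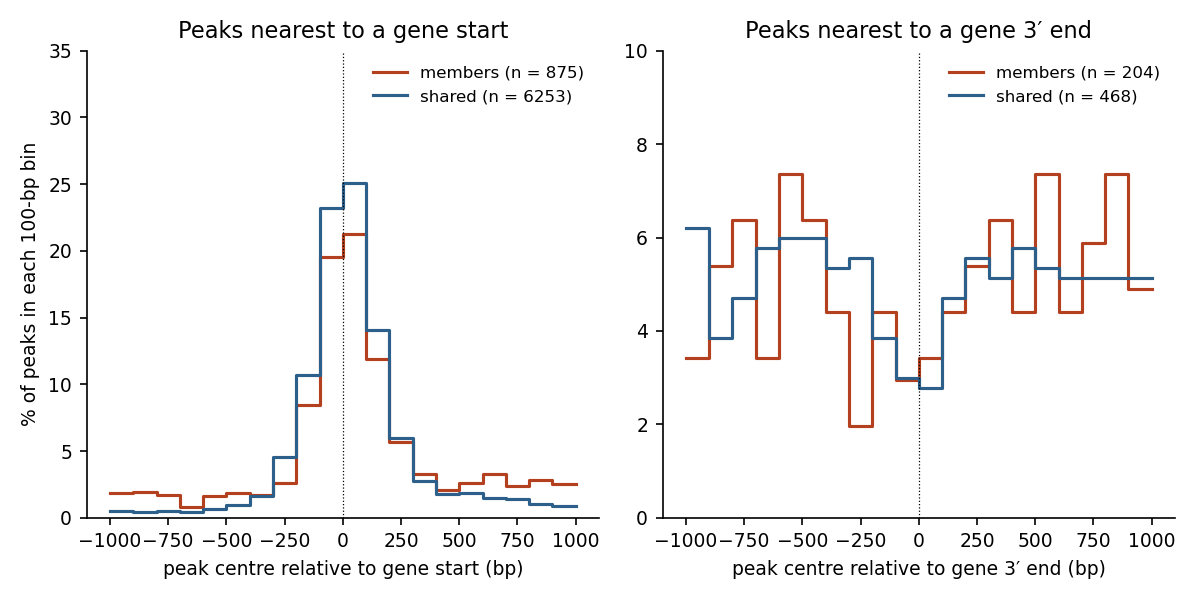
Distance of peak centres from the nearest gene start (left) or 3′ end (right), in bp along the gene, as the percentage of peaks in each 100-bp bin for 875 and 204 WT-specific gene-end peaks (members) and 6253 and 468 shared peaks. Both kinds peak at gene starts, where 21.3% of members and 25.1% of shared peaks fall in the first 100 bp downstream, and neither peaks at 3′ ends.

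The kind of gene differed too. Protein-coding genes were nearest to 69.8% (67.4 to 72.1) of WT-specific gene-end peaks and to 81.3% (80.5 to 82.1) of shared ones, long noncoding RNA genes to 23.9% (21.8 to 26.1) and 14.4% (13.7 to 15.2), and pseudogenes to 2.99% and 1.35%. Among WT peaks in the weakest of the 4 classes, 40.8% (38.6 to 43.0) at protein-coding and 51.9% (47.6 to 56.2) at long noncoding RNA genes were WT-specific. In the next class these were 11.2% (9.93 to 12.7) and 16.1% (13.1 to 19.7). Peaks nearest to genes with only a predicted name (Gm or Rik symbols) were WT-specific in 423 of 1925 cases (22.0%). By chromosome the share ran from 11.6% on chromosome 7 (9.49 to 14.1) to 18.2% on chromosome 13 (14.7 to 22.2), around the 14.5% of the genome.

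Small RNA genes contributed few members. Transfer RNA genes were nearest to 14 WT-specific peaks of 111 WT peaks (12.6%), close to the background, and microRNA genes to 13 of 64 (20.3%, 12.3 to 31.7). The microRNA genes included Mir212, known from neurons and heart, with a peak 48.5 bp from an end (−log10 q 8.47), and Mir425, with a peak 968 bp away (11.4).

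Most genes had only 1 such peak, and most had no WT peak of another kind assigned to an end. The 1503 peaks belonged to 1459 genes, 1017 of them protein-coding; 1416 genes had 1 peak, 42 had 2 and 1 had 3. For 1262 genes (86.5%), 855 of them protein-coding, every WT peak near an end was WT-specific with an empty last column. Over all genes, 10356 WT peaks near gene ends fell on 9746 genes, so 1 peak per gene was the usual case. The matching share for genes of shared peaks was not computed. A shared peak lay at the same gene end as 107 of the WT-specific ones (7.12%). A peak belongs only to its nearest gene end, here and wherever a gene is said to have no shared peak. Actn3 thus counts as having none, although a shared peak lay 207 bp from its WT-specific peak.

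Gabbr1, which encodes a subunit of the metabotropic GABA receptor, was the gene with 3: 2 at its start (−log10 q 5.33 and 3.53) and 1 at its 3′ end (4.03). A strong shared peak lay inside the gene, 15.7 kb from the start, with a −log10 q of 44.2 in WT and 48.2 in KO. Eif3j1, a translation initiation factor gene, had 2 at its start with −log10 q of 20.6 and 15.6, centred 413.5 bp upstream and 157.5 bp downstream, and neither list had another peak within 10 kb of the gene. Bmp2k, a kinase gene induced by BMP, had 2 at its start (17.5 and 9.41), and so did Itm2c, a transmembrane protein gene (15.4 and 9.84). Pip5k1a, a phosphoinositide kinase gene, had 2 at its 3′ end (17.6 and 6.22) while its other peak was shared (38.3). Vasn, which encodes an inhibitor of TGF-β, had 1 at its start (20.1) and 1 at its 3′ end (7.07).

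**Figure D3:**
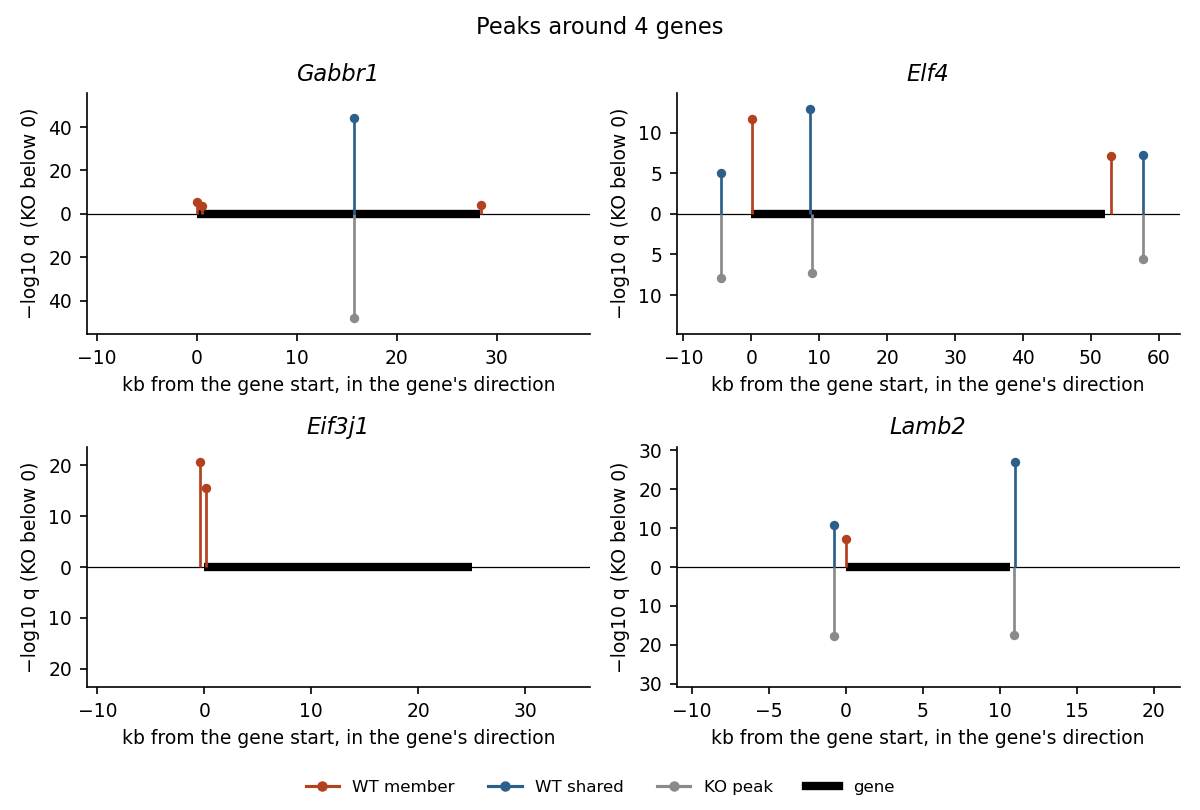
Peaks within 10 kb of 4 genes by distance from the gene start in kb (horizontal axis) and −log10 q (vertical axis, WT above and KO below 0). Each stem is 1 peak and the thick line is the gene. Shared WT peaks face a KO peak, as inside Gabbr1 (44.2 and 48.2), while the peaks at the starts of Gabbr1, Elf4 and Eif3j1 face none.

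WT-specific gene-end peaks had shared peaks in their surroundings more often than shared peaks had other shared peaks. Another shared WT peak lay within 1 kb of 184 (12.2%, 10.7 to 14.0) against 7.59% (7.05 to 8.16), and within 10 kb of 43.4% (40.9 to 45.9) against 34.1% (33.1 to 35.1). The order within 1 kb depended on strength and on the KO peaks next door: among peaks with −log10 q under 10 the share of the WT-specific ones differed by -3.52 percentage points from that of the shared ones, and by -4.04 points when peaks within 500 bp of a KO peak were moved to the shared side. A KO peak lay within 100 bp of 11 of the 1503, within 500 bp of 107 and within 1 kb of 200. Lamb2, a basement membrane laminin gene, showed this arrangement: its WT-specific peak at the start (−log10 q 7.18) lay 576 bp from the edge of a shared peak (10.7) that faced a wider KO peak (17.7).

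Peak names carry running numbers, some of which are missing from the KO list. For 161 of 1498 WT-specific gene-end peaks with KO peaks on both sides (10.7%, 9.28 to 12.4), no number was missing between those 2 KO peaks, and Elk4 and Col1a2 were among them. For the others at least 1 number was missing. The median stretch between the 2 KO peaks was 30.1 kb without a missing number and 79.1 kb with 1 or more. Among WT-specific peaks elsewhere with the last column empty, no number was missing for 904 of 6808 (13.3%, 12.5 to 14.1). Whether missing numbers stand for removed calls is not given in the sources used here, and their place cannot be read from the lists.

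Among the 14 functional lists, the highest shares were at myoblast fusion genes (5 of 13, 38.5%, Wilson interval 17.7 to 64.5) and at ETS factor genes (4 of 12, 33.3%, 13.8 to 60.9). The interval of the ETS genes includes the background of 14.5%. That of the fusion genes does not, but this list was picked as the highest of the 14. Of 12 WT peaks near the ends of ETS factor genes, 4 were WT-specific: 2 at Elf4, 1 at its start (chrX:48462732-48463213, −log10 q 11.6) and 1 at its 3′ end (7.14), 1 at the start of Elk4 (7.97) and 1 at the start of Elk3 (6.61). ELK3 and ELK4 are partners of SRF, and ELF4 acts mainly in blood and immune cells. The 5 at fusion and adhesion genes were at Jam2 (14.4) and Jam3 (12.2), junctional adhesion molecules, Cdon (12.7), a coreceptor that promotes myogenesis, Ncam1 (7.38), a neural cell adhesion molecule of muscle, and Adam12 (6.28), a metalloprotease of fusing myoblasts. All 5 genes had no shared peak at their ends. Counts were small, and the WT peaks of both lists were weak, with median −log10 q of 11.9 and 12.2 against 20.7 for all WT peaks near gene ends.

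Myogenic regulators had 1 WT-specific peak of 13, with the last column empty, at the start of Mef2b (chr8:70152617-70152770, −log10 q 24.8, fold 12.5), and 2 more WT-specific peaks with it filled. The sarcomere and calcium list had 2 of 14, at Actn3 (12.6), the fast-fibre α-actinin, and Lmod2 (8.64), a nucleator of thin filaments. Neuromuscular junction genes had 0 of 6, which allows up to 50%. Of the AP-1, TEAD and YAP list 2 of 17 were WT-specific. These were at Tead1, a factor that binds muscle promoters with YAP, with a −log10 q of 28.7 at a gene that also had a shared peak near an end (13.8), and at Fosl1, a Fos-family gene, with 4.29.

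Genes of matrix, cytoskeleton and signalling lay near the background of 14.5%. Extracellular matrix genes had 5 of 26 (19.2%), led by Mmp2 (14.5), a gelatinase, Nid1 (11.1) and Lamb2, both of basement membrane, and Timp3 (5.62), a metalloprotease inhibitor. Actin and adhesion site genes had 7 of 36 (19.4%), led by Cnn3 (15.5), a calponin, Pxn (13.9), the focal adhesion adaptor paxillin, Cfl2 with 2 (7.23 and 2.88), the muscle cofilin, and Diaph1 (6.40), a formin. Growth factor signalling genes had 5 of 33 (15.2%), of which Smad6 (14.6) and Smad7 (7.11) encode inhibitory SMADs, Acvr2b (6.47) a myostatin receptor and Smad5 (3.43) a BMP effector. Cell cycle genes had 2 of 33 (6.06%), Rbl1 (6.89), a pocket protein, and Myc (6.38). Blood and immune markers had 1 of 6, at Il3ra (12.3), the interleukin 3 receptor subunit.

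**Figure D4:**
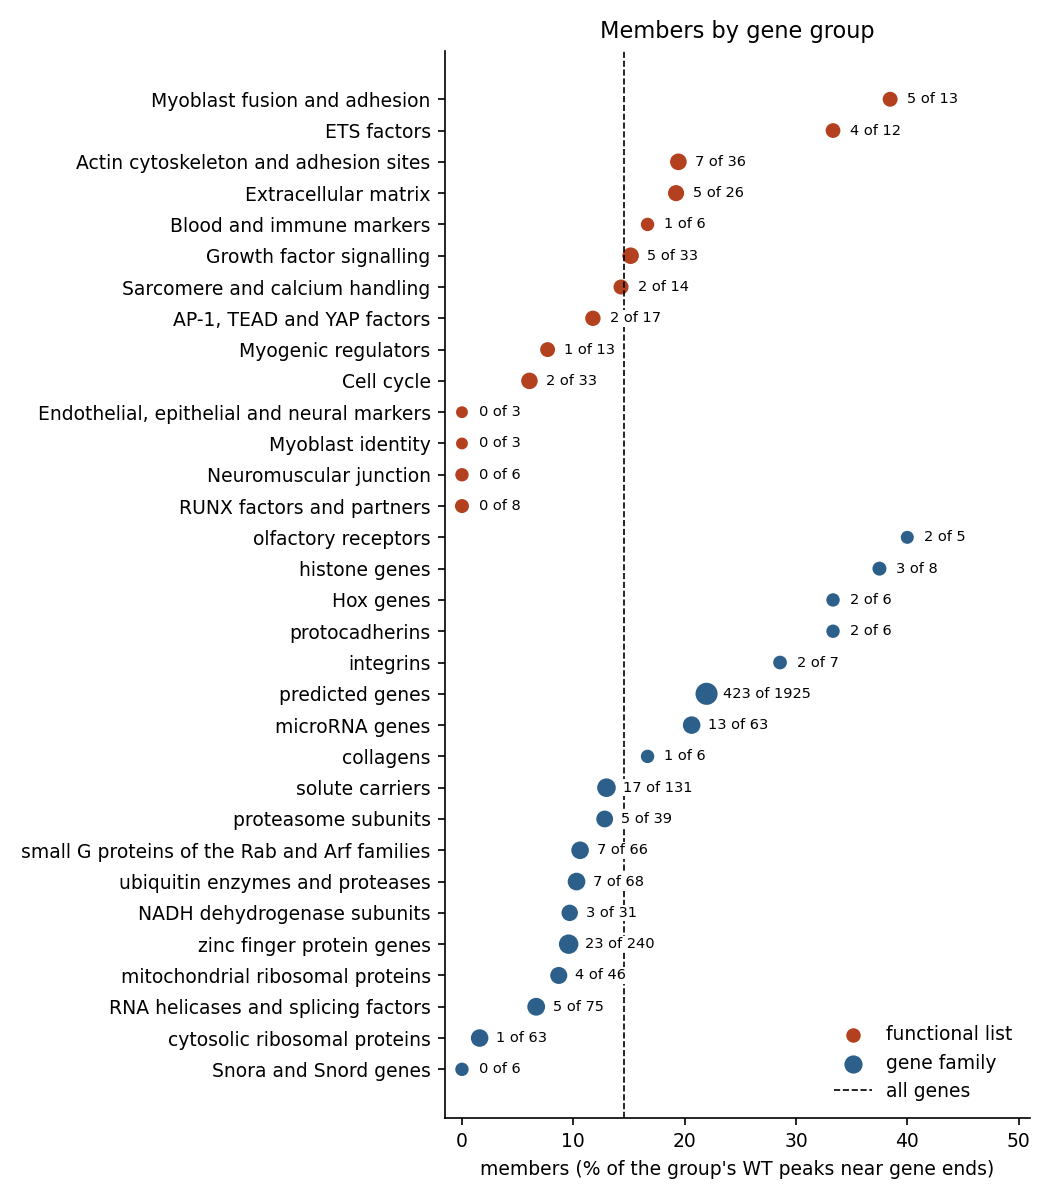
WT-specific gene-end peaks (members) as a percentage of the WT peaks near gene ends of each gene group (horizontal axis), with counts beside each point, larger points for more peaks and a dashed line at the share over all genes (14.5%). Myoblast fusion and ETS genes head the lists at 5 of 13 and 4 of 12, and cytosolic ribosomal protein genes stand at 1 of 63.

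Gene families differed in share and in the strength of their WT peaks. Cytosolic ribosomal protein genes had 1 of 63 (1.59%), at Rpl24 (−log10 q 20.5), RNA helicase and splicing factor genes 5 of 75 (6.67%), mitochondrial ribosomal protein genes 4 of 46 (8.70%) and zinc finger protein genes 23 of 240 (9.58%). NADH dehydrogenase genes had 3 of 31 (9.68%), proteasome genes 5 of 39 (12.8%) and histone genes 3 of 8 (37.5%). The WT peaks near the ends of the first 4 families had median −log10 q of 29.2, 25.6, 19.5 and 23.2. Among WT peaks with −log10 q under 10, of which 47.8% near gene ends were WT-specific, the counts were 0 of 4, 5 of 9, 2 of 6 and 14 of 36, or 0%, 55.6%, 33.3% and 38.9%. ETS factor genes had 3 of 4 and fusion genes 2 of 5 in that range.

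Promoter windows under WT-specific gene-end peaks held ETS letters less often than windows under shared peaks and RUNX letters about as often. WT-specific gene-end peaks overlapped a promoter window in 633 cases (42.1%) and shared ones in 5885 (68.0%), and the part of the greater width of shared peaks was not tested. Windows overlapped by WT-specific gene-end peaks and no shared WT peak numbered 751, in 685 genes, against 7807 windows under shared peaks and 32851 in all. A peak can overlap more than 1 window, and such windows can share letters. The intervals for windows treat each window as a unit and can therefore be too narrow. Their median CpG ratio was 0.763 (0.733 to 0.790) against 0.816 (0.811 to 0.822) under shared peaks and 0.384 over all windows. A ratio of at least 0.6, a usual mark of CpG islands, was found in 70.6% (67.2 to 73.7) against 82.6% (81.8 to 83.5).

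RUNX letters were in 23.0% (20.2 to 26.2) of the WT-specific windows, 21.6% (20.7 to 22.6) of the shared ones and 22.4% of all windows. These 3 shares lie within counting error of one another, and the order of the first 2 turned among peaks with −log10 q of at least 10 (20.8% against 21.5%). ETS letters were in 23.4% (20.6 to 26.6) against 34.0% (33.0 to 35.1), with 14.9% over all windows. CCAAT was in 30.2% (27.1 to 33.6) against 42.4% (41.3 to 43.5), with 37.4% over all windows, and the GC box in 61.8% (58.3 to 65.2) against 70.2% (69.2 to 71.2), with 35.7%. The E-box CAGCTG went the other way, with 19.6% (16.9 to 22.6) against 14.2% (13.4 to 14.9) and 16.3% over all, as did AP-1, with 5.99% (4.51 to 7.92) against 3.42% (3.04 to 3.85) and 5.20%. TEAD letters were in 12.8% against 10.9% with 14.7% over all, CRE in 3.86% against 4.01% with 1.79%, and TATA in 7.59% against 5.82% with 13.6%.

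CpG content and peak strength moved with these shares. Within windows with a CpG ratio of at least 0.6, ETS letters were in 28.5% (24.8 to 32.5) against 37.0% (35.9 to 38.2) and CCAAT in 28.5% against 41.6% (40.4 to 42.8), while the GC box stood at 74.7% against 75.2%. Windows with a ratio under 0.6 differed in the GC box as well, with 30.8% (25.1 to 37.1) against 46.6% (44.0 to 49.3). There ETS letters were in 11.3% (7.78 to 16.2) against 19.5% (17.5 to 21.7) and CCAAT in 34.4% (28.4 to 40.9) against 46.1% (43.45 to 48.75). Within windows under peaks with −log10 q under 10, a class added after the data were seen, ETS letters were in 22.5% (19.1 to 26.3) against 30.4% (27.1 to 34.0) and CCAAT in 26.7% against 25.9%. With −log10 q of at least 10, ETS letters were in 25.4% (20.3 to 31.3) against 34.3% (33.2 to 35.4) and CCAAT in 38.1% (32.2 to 44.5) against 43.9% (42.8 to 45.1). Within these broad classes of strength the CCAAT shares therefore lay within counting error of each other, and the ETS shares did not. The classes do not make strength equal. Among peaks near gene ends, the median −log10 q of WT-specific minus shared peaks was still -13.1 in the strong class and -1.31 in the weak one. Among weak peaks AP-1 letters stood at 5.62% (3.94 to 7.96) against 4.50% (3.17 to 6.35), and in CpG-rich windows at 3.21% (2.01 to 5.08) against 2.25% (1.91 to 2.64), both within counting error. With −log10 q of at least 10 they stood at 6.78% (4.22 to 10.7) against 3.32% (2.93 to 3.76), and these intervals did not overlap. In the weak class the E-box stood at 17.4% (14.4 to 21.0) against 12.4% (10.2 to 15.2), and in CpG-rich windows at 15.85% (12.99 to 19.2) against 12.45% (11.66 to 13.28). Both pairs of intervals overlap, but overlap alone does not show equal shares, and in both the WT-specific windows had the higher share. With −log10 q of at least 10 it stood at 24.15% (19.1 to 30.0) against 14.3% (13.5 to 15.1), without overlap.

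**Figure D5:**
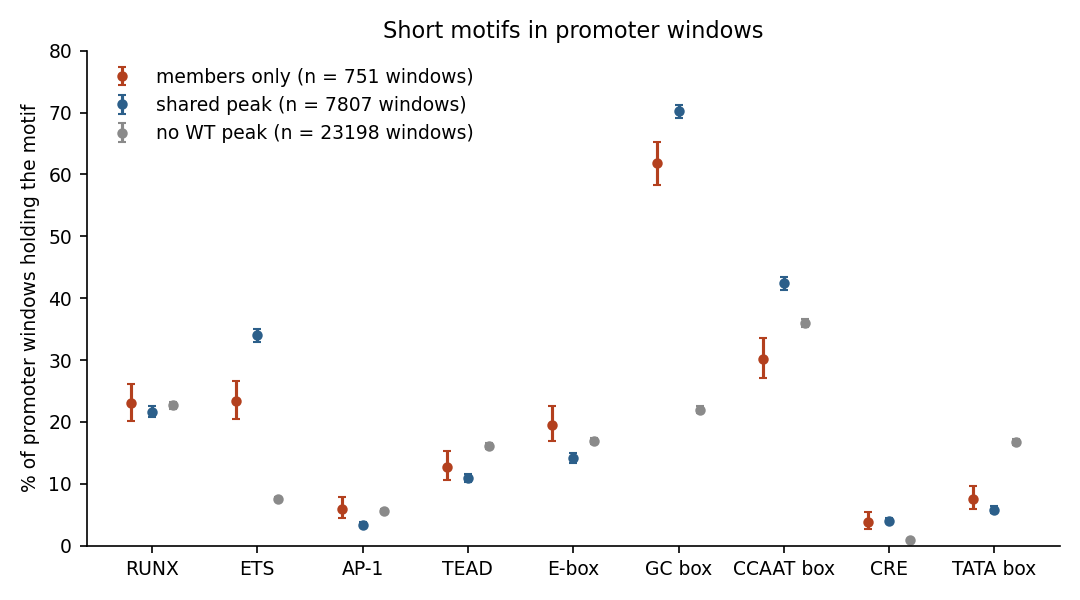
Percentage of promoter windows that hold each of 9 short motifs, for 751 windows under WT-specific gene-end peaks only, 7807 under shared peaks and 23198 under no WT peak. Points are shares and bars 95% Wilson intervals. RUNX shares lie together at 23.0%, 21.6% and 22.7%, and ETS shares are spread from 7.56% with no peak to 34.0% under shared peaks.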

How the data were processed

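ATAC-seq peak lists of C2C12 cells in growth medium were used, in mm10 coordinates per the submitters' processing notes. The deposited lists give, for each peak, a fold (a ratio to local background) and a −log10 q of the authors' peak caller. Aligner, caller, Tn5 offset, filters and duplicate handling are not given in the sources used here. The threshold of the caller, also not given, decides which weak peaks appear in either list. The other deposited columns used, a summit offset and an unlabelled column, are whole numbers and the repeated peak start. No read counts were used and depth is unknown, so no test between genotypes was made.

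Peaks were assigned to the nearest end of 49943 RefSeq genes (GRCm38.p6, the build of mm10), with strand for 27025 genes from the promoter windows, and overlapped at 1 bp or more. Exons were not used here. Each list and both genotypes held values of replicate 1 only. The genes named were those of the RUNX list, the 12 strongest peaks at protein-coding genes, 6 protein-coding genes with most peaks (ties between genes with 2 were settled by summed −log10 q), up to 4 per gene list and those at the 1 kb limit. The members, gene lists and motifs were chosen with earlier results of these data known. Distance, point, gene set, column, strength and overlap alternatives were computed in Python 3.11.15 with numpy 2.4.6, pandas 2.3.3 and scipy 1.17.1, and functions were tested on simulated data and against bedtools 2.31.1 (5 of 5 checks passed).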

Additional observations from a re-analysis of the deposited data

Results flagged for a closer look

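The unlabelled last column of the WT-specific list was filled, with the start of the peak repeated, in 204 of 1707 WT-specific peaks near gene ends (11.95%, 95% Wilson interval 10.5 to 13.6), which were left out of the 1503 peaks described. It drew attention because the column is a signal outside the measured values, with no control for it. Its meaning is not given in the sources used here. These 204 peaks had a median −log10 q of 8.98, a median width of 359.5 bp against 266 bp for the peaks with the column empty, and 82.9% at a gene start where strand was known.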

How the results depend on the processing

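With 1 library of values per genotype, no replicate could be left out. No paired analysis was possible because the lists hold values of replicate 1 only and no result comes from a test. Of 84 values recomputed for the main comparisons, 57 stayed within the interval of the main value or, for counts, within 1.5 times of it. The WT-specific share of WT peaks near gene ends (14.5%) was 12.5% at 500 bp, 16.6% at 2 kb, 12.6% with protein-coding genes only, 16.5% with filled rows kept, 17.3% with specific taken as under 50% covered by KO peaks and 13.5% with no KO peak within 500 bp. The difference of median −log10 q (-16.5) was -17.2 at 500 bp, -15.6 at 2 kb and -17.3 with protein-coding genes. That of width (-236 bp) was -206 bp under the coverage rule. That of the share at gene starts (-11.9 points) was -7.93 at 500 bp and -14.5 at 2 kb. That of the share with another shared peak within 1 kb (4.66 points) was 2.41 at 500 bp, 7.04 with protein-coding genes and, turned by construction, -4.04 with no KO peak within 500 bp. With −log10 q of at least 10, 482 peaks were left, 5.86% of those near gene ends, with differences of -13.1, -219 bp and -15.1 points at starts. With −log10 q under 10, an alternative added after the data were seen, the share was 47.8% and the differences -1.31, -81 bp, -7.00 points at starts and -3.52 points for neighbours. The difference in RUNX letters (1.40 points) turned to -0.747 at −log10 q of at least 10 and to -0.856 under the coverage rule; the cause was not tested. The difference in ETS letters kept its sign under each alternative run. Assigning every gene within 1 kb kept all 14 list shares inside their counting interval. Unknown depth limits what absence from the KO list can show.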
